A study of Mus musculus with 4 samples.

Results

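The heat shock proteins and their partner chaperones were described in 4 RNA-seq libraries of the embryonic mouse telencephalon. The members were the protein-coding genes named as Hsp90 genes, as Hspa, Hspb, Hspd, Hspe or Hsph genes, as Dnaja, Dnajb or Dnajc genes, or as subunits of the chaperonin CCT (Cct2 to Cct8 and Tcp1). This choice by name took 78 of the 27293 genes in the table, and no measured value entered it. The study asked what the innate immune adaptor STING does in neural progenitors of the developing cortex. Total RNA came from telencephalic tissue of C57BL/6 embryos at embryonic day 13 (E13). 2 libraries carried the genotype WT (WT 1 and WT 2) and 2 the genotype STINGf/f;Nestin-Cre (cKO 1 and cKO 2). In the cKO genotype, Cre expressed from the Nestin promoter is meant to act on floxed STING alleles in the neural lineage. Whether it also acts in blood, vessel or meningeal cells of the tissue was not tested. The genotype labels put both libraries in WT, but the sample title of WT 1 holds the letters wt and that of WT 2 the letters nes, which the labels do not explain, so whether WT 2 carries an allele that WT 1 lacks is not known. They also do not say whether each library is a separate embryo, so p-values measure the spread between these libraries, which may be technical.

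Molecular chaperones bind proteins that are not yet folded, or no longer folded, keep them from aggregating and let them reach their native form. Many use cycles of ATP binding and hydrolysis to do so. The Hsp70 proteins act early on new chains, J-domain proteins hand them their clients and start ATP hydrolysis, and Hsp110 proteins exchange the nucleotide. Hsp90 and the chaperonin CCT take over clients such as kinases, actin and tubulin. Hsp60 belongs to the chaperonin of the mitochondrial matrix. Many of these genes are expressed at all times, a few are switched on by heat shock factors when proteins unfold, and a set of their own serves the endoplasmic reticulum (ER) and the mitochondria.

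Values of a gene are given with replicate 1 before replicate 2 within a genotype. Total counts ran from 17209654 to 18533391 per library. A count of 0 therefore allowed up to 3 counts, or 0.162 to 0.174 CPM (counts per 1000000 counts of the library), counting error only. The STING gene, listed as Tmem173, had 20 and 19 counts in WT against 18 and 22 in cKO, so the count of this gene did not separate the genotypes, and every direction given here rests on the labels. Markers of choroid plexus, multiciliated cells and meninges were highest in WT 1, where 10 of 10, 14 of 14 and 12 of 12 markers had their highest value. Their summed CPM in WT 1 was 78.7, 77.6 and 454, against 14.5 to 17.0, 29.6 to 31.6 and 131 to 163 in the other libraries. Markers of cortical progenitors summed to between 2992 and 3191 CPM and markers of cortical neurons to between 5390 and 6386 CPM in the 4 libraries. Markers of the ventral telencephalon were low in cKO 1, with a summed CPM of 676 against 984 to 1060 in the other libraries and the lowest value there for 8 of 9 markers. The part of this difference in tissue in the values of the chaperones was not tested. In such bulk tissue, fewer cells of a type and less RNA per cell cannot be told apart.

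The chaperones took a small share of the RNA. They made up 1.24% of all counts in WT 1 (95% exact binomial interval 1.24 to 1.25) and 1.26% in WT 2 (1.25 to 1.26). In cKO 1 they made up 1.30% (1.30 to 1.31) and in cKO 2 1.34% (1.33 to 1.34). The share was 1.25% ± 0.0106 (SD, n = 2) in WT and 1.32% ± 0.0242 (SD, n = 2) in cKO, so both cKO libraries were above both WT libraries by a mean of 0.0734 percentage points. The exact two-sided permutation test gave p = 0.333, the smallest value that 2 against 2 libraries allow. Hsp90ab1 and Hspa8 held 40.6% of the members' counts. Without Hspa8 alone the share was 1.05% and 1.04% in WT and 1.08% and 1.09% in cKO, and without Hsp90ab1 alone 0.937% and 0.971% in WT and 1.02% and 1.00% in cKO, so the groups did not overlap in either case. With both genes left out, the share was 0.749% and 0.755% in WT and 0.795% and 0.752% in cKO, and the groups overlapped.

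Expression ran from a mean of 3030 CPM for Hsp90ab1 to 0.027 CPM for Hspb3, which had 2 counts in WT 2 and 0 elsewhere. The next lowest member was Dnajb8 at 0.237 CPM. Mean CPM was above 1000 for 2 members, between 100 and 1000 for 23, between 10 and 100 for 31, between 1 and 10 for 14 and at most 1 for 8. The filter on low counts kept 70 members for the test across 16145 genes, and left out Hspa1a, Hspb3, Hspb9, Cct6b, Dnajb7, Dnajb8, Dnajb13 and Dnajc22.

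No chaperone kept by the filter on low counts passed the edgeR test between the genotypes. With edgeR's quasi-likelihood test and Benjamini-Hochberg adjustment, 0 of the 70 members had an adjusted p under 0.05 (background 0% of genes tested), and every member's adjusted p rounded to 1.00. At the thresholds of the study (2-fold or more, unadjusted p of at most 0.05), 0 of 70 passed (background 0.811%). At an unadjusted p of at most 0.05 alone, 0 of 70 passed (background 1.23%), and the smallest unadjusted p of a member was 0.0964. With DESeq2, which took all 78, 0 members had an adjusted p under 0.05, and 1, Dnajb13, one of those below the filter, had an unadjusted p of at most 0.05 (background 0.517%). It also passed the thresholds of the study there (log2 fold change -3.73, unadjusted p of 0.0142, background 0.300%).

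The fitted log2 fold changes of the members, cKO over WT, ran from -0.72 to 0.29 with a median of 0.02, beside a median of -0.01 over all genes tested. 38 members were fitted above 0 and 32 below. The 95% interval of the fold change stayed inside 2-fold in either direction for 62 of the 70 members. It reached 2-fold for the other 8, namely Hspa12b, Hspa13, Hspa1b, Hspa1l, Hspa2, Hspb1, Hspb8 and Dnajb9. The members also varied less between libraries than other genes: the highest library was less than 1.25 times the lowest for 40 members (57.1%), against 32.3% of all genes tested, and at least 2 times the lowest for 5 (7.14%) against 16.8%. The comparison was not matched for level. The median of mean CPM was 45.0 over all 78 members and 1.62 over all 27293 genes in the table, including those not tested. That difference in range is a description, and no test of it was made.

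**Figure D1:**
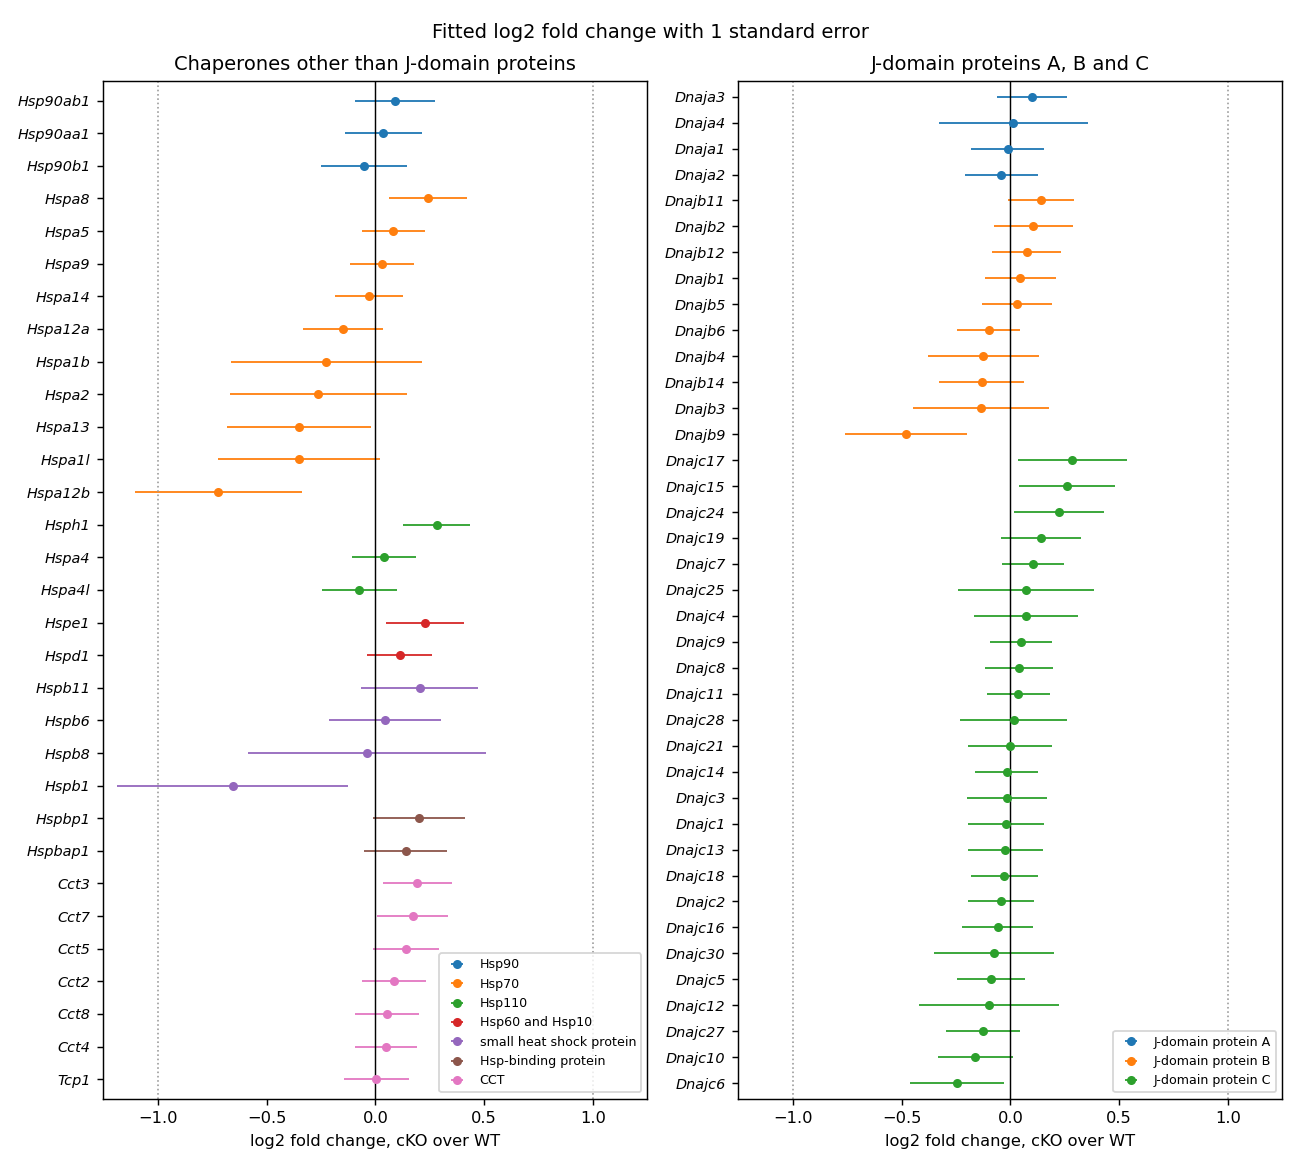
Fitted log2 fold change of each of the 70 members tested, cKO over WT, on the x axis, with bars of 1 standard error; members are grouped by family and dotted lines mark 2-fold. All points lie between -0.72 and 0.29, and the widest bars belong to members with few counts such as Hspb8 and Hspb1.

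By the order of the library values alone, 16 of the 70 members (22.9%; background 11.0%) had both cKO libraries above both WT libraries. They were Hspa8, Hspa5, Hsph1, Hspd1, Cct2, Cct3, Cct4, Cct5, Dnaja3, Dnajb11, Dnajb12, Dnajc7, Dnajc9, Dnajc15, Dnajc19 and Dnajc24. 5 members (7.14%; background 10.8%) had both cKO libraries below both WT libraries, namely Hspa14, Hspb1, Dnajb6, Dnajb9 and Dnajc27. Most of these separations were narrow. Hspa14, which acts at the ribosome, differed least, with CPM of 48.5 and 48.8 in WT and 47.8 and 47.5 in cKO. Members counted together share libraries and are not independent, so neither count tests a shift of the whole set.

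Hsp90ab1, the constitutive cytosolic Hsp90, was the most highly expressed chaperone. Hsp90ab1 CPM was 3005 and 2865 in WT and 2827 and 3422 in cKO. The range of cKO enclosed that of WT, and the log2 fold change was 0.09 ± 0.18 (SE). Hsp90aa1, the stress-responsive cytosolic Hsp90, had CPM of 712 and 691 in WT and 812 and 627 in cKO, with cKO 1 highest and cKO 2 lowest. Hsp90b1, the Hsp90 of the ER, had 154 and 157 CPM in WT and 178 and 121 in cKO and again had its highest value in cKO 1 and its lowest in cKO 2. Per kilobase of the principal transcript, the mean level was 1202 CPM for Hsp90ab1, 217 for Hsp90aa1 and 54.0 for Hsp90b1. Within a library the per-length ratio of Hsp90ab1 to Hsp90aa1 was 5.49 and 5.40 in WT and 4.53 and 7.10 in cKO, so the cKO libraries lay on either side of the WT libraries.

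Among the Hsp70 proteins, the constitutive Hspa8 stood far above the rest. Hspa8, the cytosolic Hsp70 that also uncoats clathrin vesicles, had CPM of 1857 and 2166 in WT and 2244 and 2512 in cKO. Both cKO values lay above both WT values, but the gap between WT 2 and cKO 1 was smaller than the gap between libraries of either genotype. The log2 fold change was 0.24 ± 0.18 (SE), with a 95% interval for the fold change of 0.890 to 1.57 and an unadjusted p of 0.211. Per kilobase the mean level of Hspa8 was 917 CPM. Hspa9, the mitochondrial Hsp70, and Hspa5, the Hsp70 of the ER also called BiP, followed at 75.8 and 75.5 CPM per kilobase. Hspa9 CPM was 227 and 230.0 in WT and 247 and 221 in cKO, and Hspa5 CPM was 269 and 270.2 in WT and 295 and 275 in cKO. Hspa14 and the divergent Hspa12a stood at 26.8 and 12.9 CPM per kilobase, and Hspa12a CPM was 71.2 and 83.9 in WT and 79.4 and 60.6 in cKO.

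The classical heat-inducible Hsp70 genes were close to silent in all 4 libraries. Hspa1a had 7 and 6 counts in WT against 3 and 6 in cKO. Hspa1b had 22 and 29 counts in WT against 25 and 19 in cKO. Hspa1l, their neighbour with a known role in testis, had 57 and 45 counts in WT against 45 and 36 in cKO, and Hspa2, also known from testis, had 66 and 39 in WT and 48 and 41 in cKO. At 0.103 and 0.469 CPM per kilobase, Hspa1a and Hspa1b lay far below Hspa8 in every library, and neither genotype stood apart. The 3 genes Hspa1b, Hspa1a and Hspa1l lie within one stretch of chromosome 17, with 9951 bases between Hspa1b and Hspa1a and 546 bases between Hspa1a and Hspa1l. The first pair are near copies. Of the 100 bases before each start, 99 were identical, shown here with the base that differs in capitals (RefSeq starts, GRCm38.p6, minus strand, Hspa1a at chr17:34972157-34972256 and Hspa1b at chr17:34959239-34959338):
Hspa1a: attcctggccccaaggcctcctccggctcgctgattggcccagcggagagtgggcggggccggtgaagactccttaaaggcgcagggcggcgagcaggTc
Hspa1b: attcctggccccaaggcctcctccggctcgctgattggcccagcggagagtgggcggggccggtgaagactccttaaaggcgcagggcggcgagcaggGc
Their transcripts are also alike, and 62.3% of the 50-base stretches of the Hspa1b transcript occur in Hspa1a. Reads from such stretches cannot be assigned to either gene alone, and how such reads were counted is not given in the sources used here, so both the split of counts between Hspa1a and Hspa1b and their sum are uncertain.

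Hspa12b, a divergent Hsp70 known from endothelial cells, had the log2 fold change farthest from 0 among the members tested. Hspa12b had 191 and 97 counts in WT against 100 and 78 in cKO. WT 1 stood alone at about the level of WT 2 and cKO 1 together, and WT 2 lay between the cKO libraries. The log2 fold change was -0.72 ± 0.38 (SE). The unadjusted p of 0.0964 was the smallest of all members. Without WT 1 the log2 fold change was -0.10, and without WT 2 it was -1.15 (adjusted p = 0.432, edgeR), each time with 1 WT library assumed to vary like the cKO libraries. The 10 endothelial markers were also highest in WT 1 by their sum and for 8 of the 10 singly, with a summed CPM of 247 and 189 in WT and 165 and 167 in cKO, and all 10 were fitted below 0 with a median log2 fold change of -0.49. Whether the number of endothelial cells had a part in the Hspa12b values was not tested.

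Hspa13, an Hsp70 of microsomes and the ER, was low in 1 library only. Hspa13 had 712, 632 and 741 counts in WT 1, WT 2 and cKO 1 and 330 in cKO 2, which gave a log2 fold change of -0.35 ± 0.33 (SE). Without cKO 2 the value was 0.12, and without cKO 1 it was -1.02.

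**Figure D2:**
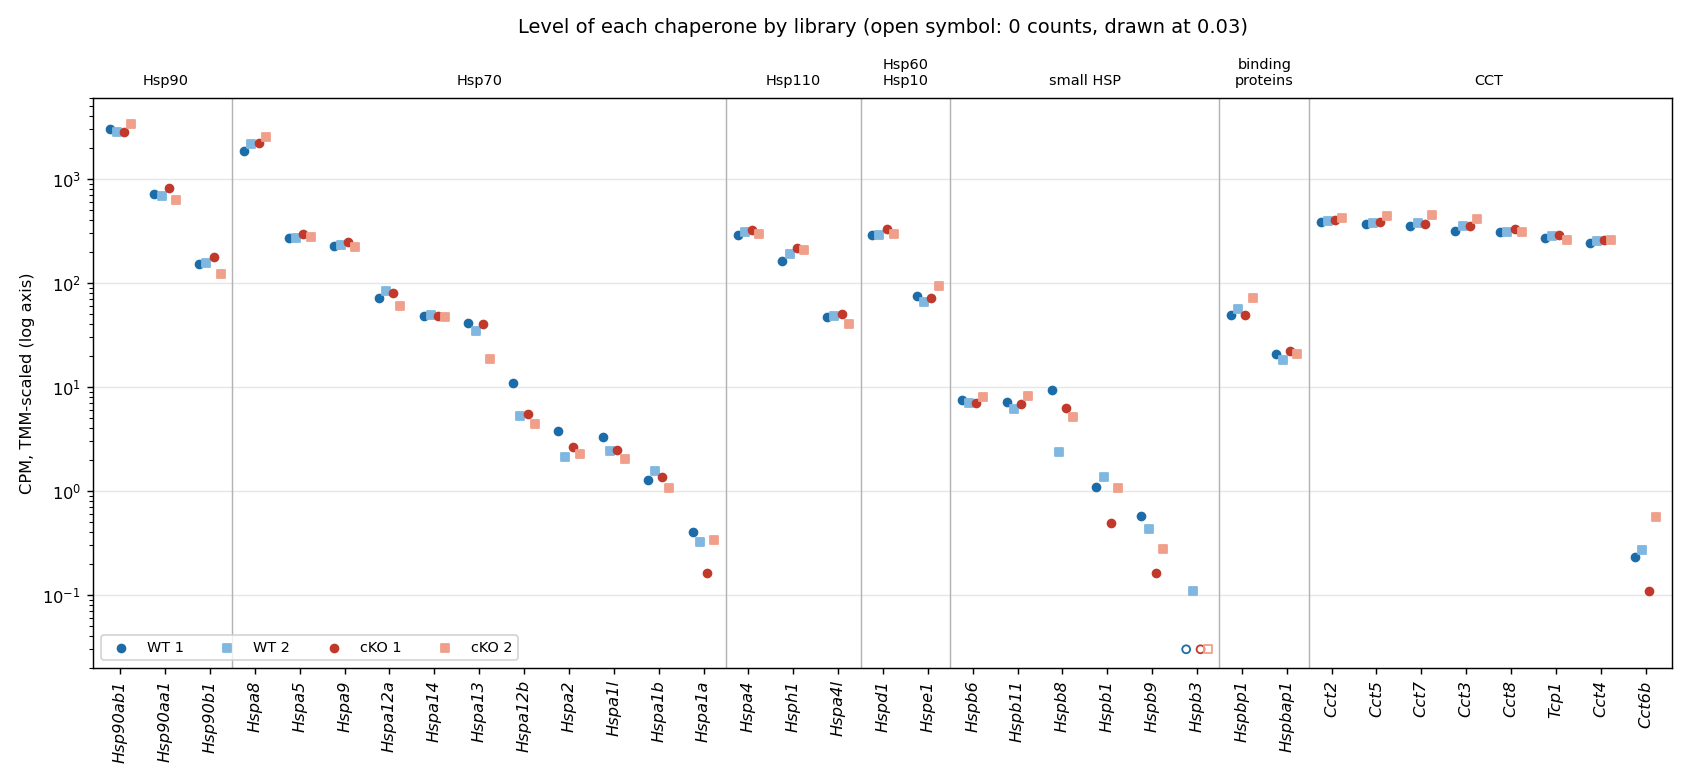
CPM on a log axis for every member outside the J-domain proteins, with 1 symbol per library, grouped by family and ordered by mean level. Hsp90ab1 and Hspa8 lie above 1000 CPM, 7 CCT subunits lie in a narrow band from 244 to 447 CPM, and Hspa1a, Hspb9, Hspb3 and Cct6b lie at or below 1 CPM.

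The Hsp110 proteins act as nucleotide exchange factors of Hsp70. Hspa4 was the highest of the 3, with CPM of 290.4 and 309 in WT and 321 and 296 in cKO and a log2 fold change of 0.04 ± 0.15 (SE). Hspa4l had 47.4 and 47.9 CPM in WT and 49.9 and 40.6 in cKO. Hsph1, also called Hsp105, rises strongly under heat shock in many cells, and was the Hsp110 member that differed most here. Hsph1 CPM was 163 and 190.0 in WT and 219 and 209 in cKO, so both cKO libraries were above both WT libraries. The log2 fold change of Hsph1 was 0.28 ± 0.15 (SE), with a 95% interval for the fold change of 0.952 to 1.55 and an unadjusted p of 0.103. With an offset for transcript GC content the unadjusted p of Hsph1 was 0.0337 (log2 fold change 0.29, adjusted p = 1.00), an alternative chosen after the data were seen. Per length, the WT libraries both had 18.1 times as much Hspa8 as Hsph1, cKO 1 had 16.3 times as much, and cKO 2 had the highest ratio.

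Hspd1 (Hsp60) and Hspe1 (Hsp10) form the chaperonin of the mitochondrial matrix, and their genes lie head to head on chromosome 1, where their annotations overlap by 112 bases. Hspd1 CPM was 291 and 289.6 in WT and 329 and 299 in cKO (log2 fold change 0.11 ± 0.15, SE). Hspe1 CPM was 75.0 and 66.4 in WT and 71.2 and 94.2 in cKO and its log2 fold change 0.23 ± 0.18 (SE). The genes did not move together between the cKO libraries, since cKO 1 was highest for Hspd1 and cKO 2 for Hspe1. The per-length ratio of Hspd1 to Hspe1 was 1.24 and 1.39 in WT and 1.48 and 1.01 in cKO. The DNA before the RefSeq starts of both genes holds a run of alternating TTC and GAA units, the pattern of a heat shock element, to which heat shock factors bind. It is shown in the direction of Hspe1 with the run in capitals (GRCm38.p6, chr1:55088039-55088096, plus strand, from 109 to 52 bases before the RefSeq start of Hspe1):
Hspe1 and Hspd1: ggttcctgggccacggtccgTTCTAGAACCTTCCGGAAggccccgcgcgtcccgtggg
The run holds 2 overlapping matches to the letters searched, which were TTCNNGAANNTTC and, on the other strand, GAANNTTCNNGAA.

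RefSeq windows from 250 bases before to 50 bases after the start were given for 65 of the 78 members. They were not given for Cct4, Dnajc2, Dnajc5, Dnajc11, Dnajc12, Dnajc18, Dnajc22, Dnajc30, Hsp90aa1, Hsp90ab1, Hspa8, Hspa9 and Hspa13. The heat shock element letters occurred in the windows of 4 of the 65 (Hspd1, Hspe1, Dnajb6 and Hsph1), beside 0.662% of the 27025 genes with a window. In Hsph1 the match lay after the start. Dnajb6, a J-domain protein that keeps polyglutamine proteins from aggregating and is the highest Dnajb gene here, holds 3 units (GRCm38.p6, chr5:29735832-29735884, plus strand):
Dnajb6: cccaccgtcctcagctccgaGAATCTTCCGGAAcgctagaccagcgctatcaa
These 4 genes had log2 fold changes from -0.10 for Dnajb6 to 0.28 for Hsph1, and mean CPM from 76.7 for Hspe1 to 302 for Hspd1. The windows of Hspa1a and Hspa1b do not hold these exact letters, which says nothing about other forms of the element.

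The genes of the factors that bind such elements did not pass a test either. The 5 genes tested were the factors Hsf1, Hsf2 and Hsf4 and, as proteins that bind such factors, Hsf2bp and Hsbp1. Of these 5, 0 passed at an unadjusted p of at most 0.05 (edgeR). Hsf1, the main factor of the heat response, had 1195 and 1244 counts in WT against 1129 and 1419 in cKO (log2 fold change 0.05 ± 0.17, SE). Hsf2, which acts in brain development, had 1183 and 1185 counts in WT against 1379 and 869 in cKO, with both extremes in cKO. Hsf4 had few counts, with 13 and 16 in WT against 8 and 5 in cKO. Both cKO libraries were below both WT libraries (background 10.8%). Its log2 fold change was the farthest from 0 of the 5, at -1.16 ± 0.57 (SE), with an unadjusted p of 0.0750 (edgeR).

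The chaperonin CCT folds actin and tubulin, which neurons need in quantity as they extend processes, and its subunits form rings with each subunit at a fixed place. 7 of the 8 CCT genes among the members were expressed within a narrow range of 244 to 447 CPM in all 4 libraries. Cct2 was highest with CPM of 384 and 396 in WT and 403 and 424 in cKO and a log2 fold change of 0.09 ± 0.15 (SE). Cct3 had the largest difference. Cct3 CPM was 319.8 and 352 in WT and 356 and 412 in cKO, with a log2 fold change of 0.19 ± 0.16 (SE). WT 2 and cKO 1 were nearly equal, and cKO 2 lay above both. Cct5 had 371 and 379.8 CPM in WT and 390.1 and 438 in cKO, Cct7 351 and 377 in WT and 373 and 447 in cKO, and Cct4 244 and 255 in WT and 259 and 258 in cKO. Cct8 had 307 and 309.6 CPM in WT and 334 and 306 in cKO and Tcp1, the first subunit, 269 and 283 in WT and 292 and 262 in cKO. All 7 were fitted at or above 0, with a median of 0.09, and 4 of the 7 had both cKO libraries above both WT libraries (background 11.0%). The subunits did not share 1 order of libraries: Cct2, Cct3, Cct5 and Cct7 were highest in cKO 2, while Cct4, Cct8 and Tcp1 were highest in cKO 1. Per kilobase of the principal transcript the 7 genes ranged from 102 CPM for Cct4 to 213 for Cct5.

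Cct6b, the testis form of the sixth subunit, had 4 and 5 counts in WT against 2 and 10 in cKO and was not tested. The widely expressed form, Cct6a, is listed in the table as a processed transcript and was therefore not a member, though its level of 266.8 and 264.0 CPM in WT and 282 and 243 in cKO placed it among the other subunits.

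**Figure D3:**
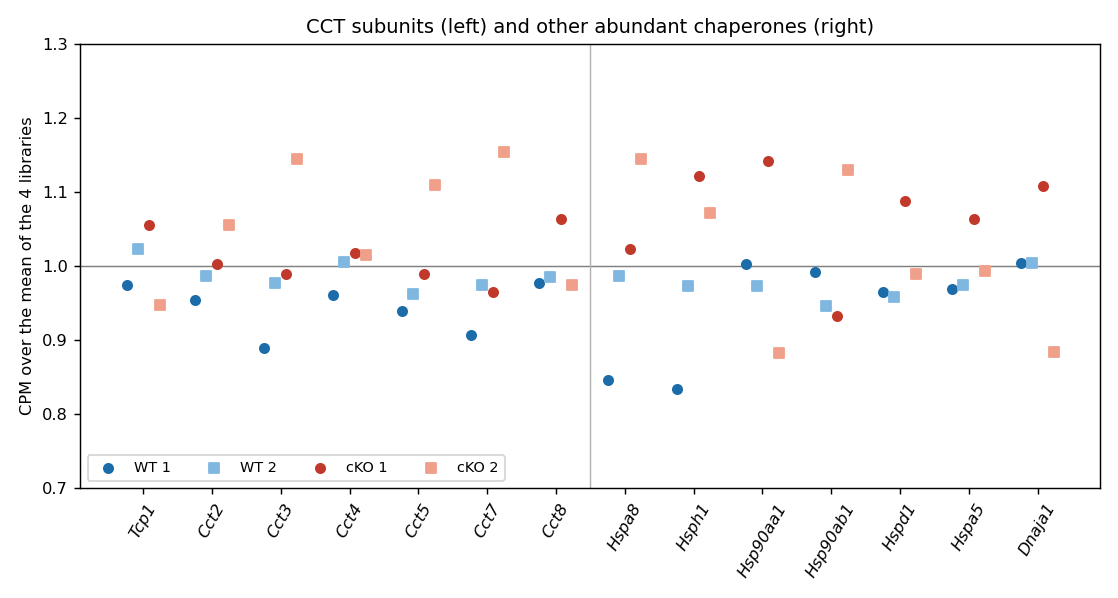
CPM of each library divided by the mean of the 4 libraries for 7 CCT subunits (left of the line) and 7 other abundant chaperones (right); circles are replicate 1, squares replicate 2, blue WT and red cKO. All values lie between 0.8 and 1.2, and the 2 cKO libraries lie on opposite sides of the mean for Hsp90aa1, Hsp90ab1, Tcp1, Cct3, Cct5, Cct7, Cct8, Hspd1, Hspa5 and Dnaja1.

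The small heat shock proteins, which hold unfolded proteins without using ATP, were rare in this tissue. Of 6 members, 4 passed the filter, and none had a mean above 7.37 CPM. Hspb6 was highest with CPM of 7.52 and 7.00 in WT and 6.99 and 7.99 in cKO (log2 fold change 0.04 ± 0.26, SE). Hspb11, now known as a protein of intraflagellar transport in cilia, had 7.12 and 6.07 CPM in WT and 6.93 and 8.27 in cKO. Hspb1 (Hsp25 in the mouse), which in many tissues rises under stress, had 19 and 25 counts in WT against 9 and 19 in cKO. The fitted log2 fold change was -0.66 ± 0.53 (SE), on counts so few that a 95% interval of the fold change reached from 0.272 to 1.48. Hspb8, a partner of Bag3 in selective autophagy, had the widest spread within a genotype among members tested, with 163 counts in WT 1 and 44 in WT 2, against 115 and 92 in cKO. The fitted log2 fold change was -0.04 ± 0.55 (SE), and leaving out WT 1 gave 1.26 (unadjusted p of 0.0128, adjusted p = 1.00, edgeR). Hspb9, a testis gene, had 10 and 8 counts in WT against 3 and 5 in cKO, and Hspb3, a muscle gene, had 2 counts in WT 2 and 0 elsewhere.

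The rule also took 2 binding proteins by name. Hspbp1, a nucleotide exchange factor of Hsp70, had CPM of 49.1 and 56.6 in WT and 49.1 and 72.5 in cKO, with a log2 fold change of 0.20 ± 0.21 (SE). Hspbap1, named for binding Hspb1, had 20.7 and 18.1 CPM in WT and 22.1 and 20.7 in cKO.

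J-domain proteins stimulate the ATPase of Hsp70 and were the most numerous members, with 4 Dnaja, 13 Dnajb and 26 Dnajc genes. Of the 43, 39 were tested, 18 were fitted above 0 and 21 below, and their median log2 fold change was -0.01. Dnaja1, a general cytosolic partner of Hsp70, was the most highly expressed with CPM of 400.2 and 400.5 in WT and 442 and 352 in cKO. The WT libraries were almost equal and the cKO libraries lay on either side. Dnajc5, the cysteine string protein of synaptic vesicles, had 261 and 309.6 CPM in WT and 269 and 268 in cKO. Dnajb6 had 169 and 175 CPM in WT and 167 and 154 in cKO, Dnajc7 162 and 154 in WT and 166 and 174 in cKO, and Dnaja2 172 and 159 in WT and 180.3 and 141 in cKO. Per kilobase of the principal transcript, Dnajb6 stood highest of the J-domain genes at 104 CPM, before Dnajc8 at 93.8, Dnajc9 at 83.3 and Dnaja1 at 70.9. Per kilobase of all exons of the gene, Dnajc9 stood highest at 57.1 CPM and Dnajb6 was at 27.4.

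The 5 J-domain genes fitted highest in cKO were Dnajc17, Dnajc15, Dnajc24, Dnajc19 and Dnajb11. Dnajc17, linked to RNA splicing, had CPM of 11.0 and 13.1 in WT and 12.3 and 17.1 in cKO and a log2 fold change of 0.29 ± 0.25 (SE). Dnajc15, of the inner mitochondrial membrane, had 14.4 and 14.1 CPM in WT and 14.7 and 19.4 in cKO (0.26 ± 0.22). For both, cKO 2 alone was high. Dnajc24, which serves the synthesis of diphthamide on an elongation factor, had 12.2 and 12.4 CPM in WT and 14.6 and 14.2 in cKO (0.22 ± 0.21), with both cKO libraries above both WT libraries and a small spread within each genotype. Dnajc19, of the mitochondrial import motor, had 20.0 and 20.2 CPM in WT and 21.2 and 23.1 in cKO (0.14 ± 0.18), and Dnajb11, a partner of BiP in the ER, 61.1 and 63.5 CPM in WT and 65.3 and 71.9 in cKO (0.14 ± 0.15). Each bracket gives the log2 fold change with its SE, and the unadjusted p of these genes ran from 0.272 to 0.463.

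The 5 fitted lowest were Dnajb9, Dnajc6, Dnajc10, Dnajb3 and Dnajb14. Dnajb9, an ER protein that releases BiP onto the sensor Ire1, had 296 and 266 counts in WT against 257 and 152 in cKO. Both cKO libraries were below both WT libraries, cKO 1 by little. The log2 fold change of Dnajb9 was -0.48 ± 0.28 (SE), without cKO 1 it was -0.88 (adjusted p = 0.130, edgeR), and without cKO 2 it was -0.15. Dnajc6, the neuronal auxilin that recruits Hspa8 to clathrin coats, had CPM of 38.8 and 54.0 in WT and 43.8 and 34.6 in cKO (log2 fold change -0.24 ± 0.22, SE), with the lowest and the next-lowest value in different genotypes. Dnajc10, an ER reductase, had 64.6 and 64.8 CPM in WT and 64.7 and 50.9 in cKO (-0.16 ± 0.17), so 3 libraries were alike and cKO 2 was lower. Dnajb3 had 3.73 and 4.45 CPM in WT and 3.71 and 3.74 in cKO (-0.13 ± 0.31) and Dnajb14, of the ER membrane, 27.6 and 27.3 in WT and 28.3 and 21.9 in cKO (-0.13 ± 0.20). The tested J-domain genes with the widest range over libraries were Dnajb9, where the highest library was 2.00 times the lowest, Dnajc6, Dnajc17 and Dnajb4, each at 1.56 times, and Dnajc25 at 1.53 times. Dnajb4 had 453 and 350 counts in WT against 451 and 298 in cKO and Dnajc25 110 and 102 in WT and 138 and 88 in cKO, with high and low values in both genotypes.

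Dnajb13, a protein of the radial spokes of motile cilia, had most of its counts in 1 library. Dnajb13 had 37 and 2 counts in WT against 1 and 2 in cKO, and the filter on low counts removed it. The ratio of WT to cKO CPM was 13.1 (95% interval 4.17 to 66.4, counting error only), but 1.31 (0.109 to 11.4) without WT 1. When every gene with at least 1 count was fitted, Dnajb13 was the only one of 78 members with an adjusted p under 0.05 (background 0.238%; log2 fold change -3.63, adjusted p = 0.0143, edgeR), and the result rested on WT 1. The 14 markers of multiciliated cells summed to 77.6 CPM in WT 1 and to between 29.6 and 31.6 CPM elsewhere, and all 14 were highest in WT 1, among them Dnah6 with 57 and 9 counts in WT against 3 and 1 in cKO and Cfap65 with 91 and 4 in WT and 2 and 7 in cKO. Of these markers, 1 was at 0 in cKO 1 and 1 in cKO 2. The part of ciliated cells in the Dnajb13 counts was not tested. The other J-domain genes below the filter were Dnajb7 with 4 and 2 counts in WT against 11 and 4 in cKO, Dnajb8 with 4 and 6 in WT and 0 and 7 in cKO, and Dnajc22 with 2 and 6 in WT and 5 and 7 in cKO.

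**Figure D4:**
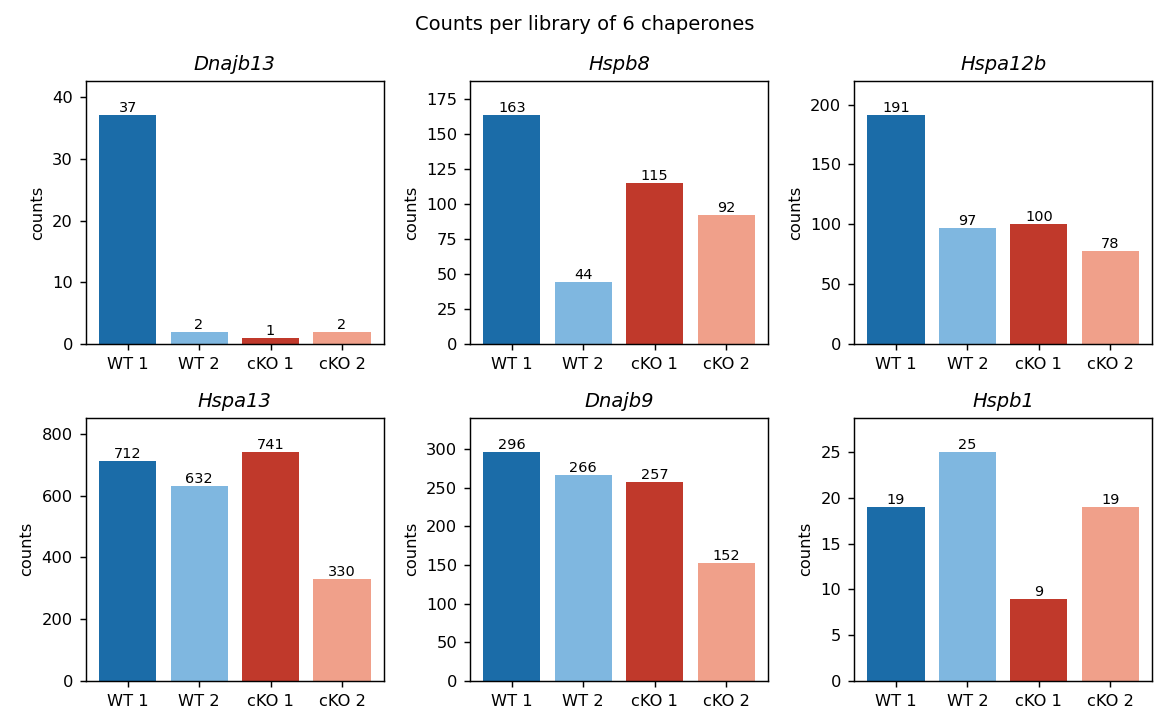
Counts per library of 6 chaperones, with bars from 0 and the count above each bar. Dnajb13 and Hspa12b are high in WT 1, Hspb8 is low in WT 2, Hspa13 and Dnajb9 are low in cKO 2, and Hspb1 is low in cKO 1.

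Most of the ER chaperones were lower in cKO 2 than in cKO 1. The 7 members known from the ER lumen (Hspa5, Hsp90b1, Hspa13, Dnajb9, Dnajb11, Dnajc3 and Dnajc10), a group formed after their values were seen, summed to 636 and 634 CPM in WT and 690.1 and 573 in cKO. Of the 7, 6 were lower in cKO 2 than in cKO 1, beside 48.4% of all genes tested, and cKO 2 was the lowest library for 5, beside 33.4%. Hspa5 in cKO 2 lay above both WT libraries, and Dnajb11 had its highest value in cKO 2. Among 23 other genes of ER folding and the unfolded protein response, cKO 2 was the highest library for 14 and the lowest for 5. The promoters of 3 of the 7 hold the ER stress element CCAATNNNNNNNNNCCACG, searched on both strands (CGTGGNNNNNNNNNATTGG on the other), which 0.137% of genes with a window hold. They were Hspa5, Hsp90b1 and Dnajc3, the gene of the inhibitor P58IPK, and no other member's window held it. The fixed letters are in capitals (GRCm38.p6, chr2:34772010-34772058, plus strand, for Hspa5, chr10:86705518-86705671, minus strand, for Hsp90b1 with 1 match in each direction, and chr14:118937812-118937860, plus strand, for Dnajc3):
Hspa5: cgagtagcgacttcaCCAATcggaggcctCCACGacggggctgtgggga
Hsp90b1: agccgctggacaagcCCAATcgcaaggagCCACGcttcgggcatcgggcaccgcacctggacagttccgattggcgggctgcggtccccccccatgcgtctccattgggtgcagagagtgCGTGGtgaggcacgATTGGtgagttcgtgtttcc
Dnajc3: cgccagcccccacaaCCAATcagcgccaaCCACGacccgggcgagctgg
The 3 genes with the element had log2 fold changes of 0.08 for Hspa5, -0.05 for Hsp90b1 and -0.02 for Dnajc3. The library cKO 2 was lowest for Hsp90b1 and Dnajc3, which hold the element, and for Dnajb9 and Dnajc10, which had no match. It was also lowest for Hspa13, which had no window.

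The difference between the cKO libraries varied with the base composition and the length of the transcripts. Across the 70 members tested, the log2 ratio of cKO 2 to cKO 1 (CPM + 1) rose with transcript GC content (Spearman's rho 0.48), as it did across 16120 genes (0.63), whereas the ratio of WT 2 to WT 1 had rho 0.14 and 0.16. The ratio of cKO 2 to cKO 1 also fell with the length of the principal transcript (rho -0.49 across the members and -0.40 across 13701 genes). For the ratio of WT 2 to WT 1 these values were 0.17 and 0.12. The fitted log2 fold change, cKO over WT, also fell with length (rho -0.36 across the members and -0.25 across 13701 genes). Against GC content its rho was -0.0031 across the members and 0.27 across 16120 genes. The comparison of genotypes was therefore not free of this dependence. GC content and length were not separated. Genes of a library are not independent, and these values describe the libraries. Among the 35 members of lower GC content (39.5 to 47.0%) 9 were higher in cKO 2 than in cKO 1, and among the 35 of higher GC content (47.2 to 61.7%) 23 were. Hspa13 (39.8% GC), Dnajb9 (40.6%), Hsp90b1 (42.1%) and Dnajc3 (43.2%) were at the low end, and Dnajb11 (50.5%) was not. cKO 2 was the highest or the lowest library for 52 of the 70 members (74.3%), beside 67.0% of all genes tested. What produced this pattern was not tested. Leaving out cKO 1, so that cKO 2 alone stood for its genotype, put 8 of 73 members tested at an unadjusted p of at most 0.05 (background 15.0%), with Hspa13, Dnajb9, Hsp90b1, Dnajc10 and Hspa12a lower and Hspbp1, Hspe1 and Dnajc15 higher, all with adjusted p of at least 0.0550 (edgeR). Leaving out cKO 2 gave 1 of 73 (background 2.67%), Hsph1 (unadjusted p of 0.0471, adjusted p = 0.999, edgeR).

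**Figure D5:**
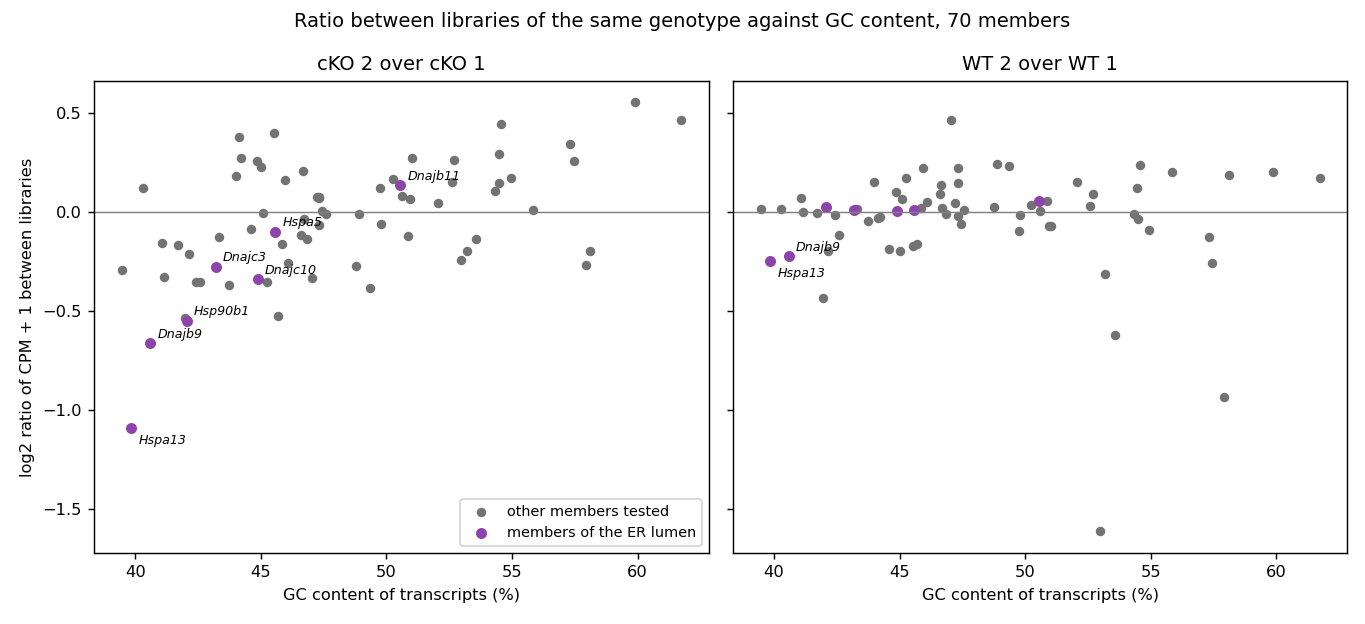
Log2 ratio of CPM + 1 between libraries of the same genotype (y axis) against transcript GC content in percent (x axis) for the 70 members tested, cKO 2 over cKO 1 on the left and WT 2 over WT 1 on the right, with 7 members of the ER lumen in purple. On the left the low-GC members lie mostly below 0 (rho 0.48), and on the right they lie near 0 (rho 0.14).

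Genes that work with the chaperones were described from lists of other genes. The list of cochaperones of Hsp90 and Hsp70 also held Trap1, Cryab and Clpb, which are chaperones themselves. Of its 32 tested genes, 0 passed at an unadjusted p of at most 0.05 (edgeR), and their median log2 fold change was 0.08. The highest were Stip1 (0.23), the scaffold that joins Hsp70 to Hsp90, and Fkbp4 (0.22), and the lowest Ptges3 (-0.23), the p23 protein that stabilizes closed Hsp90, and Chordc1 (-0.20). Of 18 prefoldin and chaperonin helper genes 0 passed, with Pfdn4 highest at 0.45 and Vbp1 lowest at -0.52, both subunits of prefoldin, which delivers actin and tubulin to CCT. Of 23 tested genes of ER folding and the unfolded protein response 0 passed, with a median of 0.11. 9 of the 23 had both cKO libraries above both WT libraries (39.1%; background 11.0%), and Sdf2l1, an ER partner of BiP, was highest at 0.48. Of 12 tested immediate early genes, whose RNA rises within minutes of a stimulus such as dissection, 0 passed and the median was -0.05, with Egr3 lowest at -0.78 and Jun highest at 0.25.

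Many chaperone genes have processed pseudogenes, and reads from shared stretches can be split between gene and copy. For 47 of the 78 members no 50-base stretch of the transcript occurred in a transcript of another gene. For 13 more than 10% of the stretches did, led by Hspa8 (73.2%), Hspa1b (62.3%), Hspa1a (60.4%), Hspb1 (58.9%), Hsp90aa1 (58.5%), Hspd1 (44.8%), Dnajb6 (41.9%) and Hspe1 (36.1%). The CCT genes were largely free of such copies, with at most 2.13% in Cct3. Where the closest copy of these 13 was a pseudogene that the table lists, it had few counts. Gm12346 had 0.921% of the counts of Hsp90aa1, Gm6395 3.15% of those of Dnajb6 and Gm15542 3.95% of those of Dnaja1. The closest copies of Hspa8, Hspb1 and Hspe1 are not in the table, so their counts are not known. Hspa1a and Hspa1b were the closest copies of each other, and Hspa1a had 23.2% of the counts of Hspa1b. Gm45902, a protein-coding entry that overlaps in sequence with Hspa14, had 34.9% of the counts of Hspa14. The levels of the members with many shared stretches, Hspa8 above all, are therefore less certain than those of CCT, while every library was counted in the same way.

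Of the members on the chromosome of the targeted gene, Dnajc18 lay nearest, 30533 bases from Tmem173 on chromosome 18, and Hspa9 779320 bases away. Dnajc18 had 1089 and 1278 counts in WT against 1153 and 1189 in cKO, and both cKO values fell between the WT values.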

How the data were processed

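Total RNA of 4 libraries, 2 per genotype, was sequenced on an Illumina HiSeq. The authors deposited raw counts of reads per gene, without normalization, and the submitters' processing notes name Bowtie2 2.2.3, TopHat2 2.0.12 and HTSeq 0.6.0. These notes name the build mm9, but 97.3% of 27232 gene positions in the table match GENCODE M21, so positions were read as GRCm38. How reads on several genes and strand were treated is not given in the sources used here. The 11 blank rows (0.0403%) were left out. The authors' columns of fold changes and p-values and a second table of 2 of the libraries were not used.

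The test was edgeR 4.0.16 in R 4.3.3 (TMM factors 0.989 to 1.01, filterByExpr, quasi-likelihood test, no covariate, 4 libraries), on the whole table. DESeq2 1.42.0, other normalizations and filters, a replicate block and leaving out each library were alternatives. CPM is scaled by TMM, SD and n refer to 2 libraries, and the SE is the fold change over the root of F. Intervals of shares are exact (Clopper-Pearson). Levels per kilobase use the longest APPRIS principal transcript of GENCODE M21. The procedure was tested on simulated data with 4-fold changes in 194 tested genes. At an adjusted p under 0.05 (edgeR), 166 of them (85.6%) were recovered, and 14 unchanged genes were called as well. Smaller changes, such as those fitted for the members, were not simulated. Genes named were all members outside the J-domain families, J-domain genes by largest change, level, range and failed filter, and the 2 highest and 2 lowest of other lists or a subset of them, with Hspa13, Hspb8, Dnajc18, Dnah6 and Cfap65 chosen after their values were seen. Members and lists were chosen with earlier results of these data known.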

Additional observations from a re-analysis of the deposited data

How the results depend on the processing

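Members with few counts, such as Hspb1, have wide intervals at this depth. Counts of members past adjusted p, past 2-fold with unadjusted p, and past unadjusted p alone were 0, 0 and 0. With RLE or upper-quartile normalization all 3 stayed at 0, and where each library had to hold at least 10 counts too. With every gene of at least 1 count fitted they were 1, 1 and 2, with DESeq2 0, 1 and 1, and with the GC offset, added after the data were seen, 0, 0 and 1. With the replicate block they were 0, 0 and 1 (Hspa13, unadjusted p of 0.0478), and the genes called over the whole table were 5 by adjusted p and 208 at the study's thresholds. The deviations of same-numbered libraries correlated with r = 0.108 over 16145 genes, and the labels do not say that a number marks a litter or batch. Leaving out 1 library at a time gave 0 to 1, 0 to 2 and 1 to 8 members. The 8 came without cKO 1, where a larger share of all genes tested than of the members passed. Such fits leave 1 library in a genotype, which cannot show its own spread. Past unadjusted p alone, the share of all genes tested was 1.23% in the main fit and 0.517% with DESeq2.

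Over all genes, the count by adjusted p was 0, 65 with every gene of at least 1 count, and 0 to 116 leaving out a library. At the study's thresholds it was 131, 405 with every gene of at least 1 count, 72 where each library had to hold at least 10 counts, 82 with DESeq2, and 104 to 531 leaving out a library. The members' median log2 fold change was 0.023, 0.033 where at least 10 counts were asked of each library, 0.034 with DESeq2, 0.057 with the GC offset, and -0.015 to 0.058 leaving out a library. The difference in share of counts was 0.0562 to 0.0905 percentage points leaving out a library and 0.0749 over protein-coding counts.

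Directions were followed for 24 of the named members, but not for others such as Hsp90aa1, Hsp90b1 and Dnaja1. Of the 24, 23 kept their direction in each of the 7 refits with every library that fitted them. Hspb1 was not fitted where each library had to hold at least 10 counts. Hspb8 turned to 0.20 with the replicate block. Leaving out a library turned 10 of them in at least 1 fit: Hspa13 ranged from -1.02 to 0.12, Hspb8 from -0.70 to 1.26, Hspa4 from -0.018 to 0.11, Hspb6 from -0.042 to 0.14, Hsp90ab1 from -0.041 to 0.22, Hspbp1 from -0.094 to 0.46, Dnajc6 from -0.46 to 0.026, Dnajc10 from -0.34 to 0.014, Dnajb3 from -0.25 to 0.010 and Dnajb14 from -0.32 to 0.054.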
